A study of Mus musculus with 7 samples.

Results

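The 40 genes described here mark macrophages and their close relatives among white blood cells, and were followed in cells sorted from the fetal mouse bowel. They were listed by symbol: pan-leukocyte genes, receptors and lysosomal genes of phagocytes, complement C1q, genes of tissue-resident macrophages, the receptor Csf1r and its ligands. All 40 were measured, each by 1 probe set, among 19938 genes in the table. Gene expression was read on 7 microarrays at embryonic day 17.5. Sorted cells made up 4 YFP-positive samples from the whole bowel of Wnt1-Cre;R26R-EYFP embryos, labelled enteric neural crest-derived cells (ENCDC), and they were compared with 3 YFP-negative samples of the other bowel cells from embryos of that genotype. Wnt1-Cre acts in the neural crest and switches on the fluorescent reporter EYFP there, so the YFP-negative sort holds every other cell type of the bowel together. The labels do not say whether samples of a group came from separate embryos or litters, so p-values measure the spread between these samples.

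Macrophages enter the gut before birth and live in its mucosa and muscle layers, where they take up dying cells and microbes and, in adult mice, lie beside enteric neurons. Their survival depends on the receptor tyrosine kinase CSF1R, which binds the growth factors CSF1 and IL-34. The transcription factor PU.1, made by the gene Spi1, switches on many myeloid genes through DNA sites with the core letters GAGGAA, often together with the interferon regulatory factor IRF8. Macrophages sense antibodies, lectin ligands and lipids through receptors that signal by way of the adaptors Fcer1g and Tyrobp.

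The promoters of these genes are shown first, because their letters can be set beside the expression differences that follow. RefSeq windows of build GRCm38.p6, running from 250 bases before to 50 bases after each transcription start, were found for 30 of the 40 genes, with 38 windows in all. The core GAGGAA, on either strand, stood in 16 of the 30 genes (53.3%), against 30.2% of the 15614 genes of the array table that have a window. A longer composite, which PU.1 binds together with an IRF factor, has GGAA and GAAA with any 2 bases between them. It stood in 6 of the 30 genes (20%) and in 2.98% of those 15614. The 2 motifs can overlap, and a match is a run of letters, not a measured binding site.

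Cybb, Cd68 and Clec7a are shown because each holds the composite in the same letters. Read along the gene, these letters are TTTCATTTCC, and 40 of the 15614 genes with a window (0.256%) hold them on either strand. The run was picked after the windows were seen. It is not the only shared run: Fcgr2b, Folr2 and Timd4 all hold the composite as GGAAGTGAAA, read in the direction of the motif. Capitals mark the core and the composite, each sequence is written 5′ to 3′ along the gene, and of the 2 overlapping Clec7a windows the one given first by position is shown.
Cybb, chrX:9469275-9469574, minus strand: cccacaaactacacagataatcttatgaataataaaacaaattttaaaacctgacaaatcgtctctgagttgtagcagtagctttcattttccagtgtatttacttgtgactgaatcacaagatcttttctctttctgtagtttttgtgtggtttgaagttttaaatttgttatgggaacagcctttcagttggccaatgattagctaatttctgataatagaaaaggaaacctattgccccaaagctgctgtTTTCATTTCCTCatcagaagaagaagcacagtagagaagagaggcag
Cd68, chr11:69666121-69666420, minus strand: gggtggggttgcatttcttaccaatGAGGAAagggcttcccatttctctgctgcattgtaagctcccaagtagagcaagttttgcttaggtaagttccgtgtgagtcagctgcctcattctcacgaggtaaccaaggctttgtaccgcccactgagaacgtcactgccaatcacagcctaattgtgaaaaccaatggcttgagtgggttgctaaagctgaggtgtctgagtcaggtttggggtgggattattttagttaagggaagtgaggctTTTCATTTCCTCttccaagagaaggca
Clec7a, chr6:129472730-129473029, minus strand: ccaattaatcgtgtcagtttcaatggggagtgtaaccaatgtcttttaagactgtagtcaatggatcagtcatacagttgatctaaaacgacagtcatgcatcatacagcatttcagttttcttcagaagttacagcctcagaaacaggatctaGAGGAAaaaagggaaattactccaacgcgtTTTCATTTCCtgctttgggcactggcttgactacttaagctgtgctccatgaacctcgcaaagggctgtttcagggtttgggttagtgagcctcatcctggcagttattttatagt

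C1qb and Laptm5 are shown as strongly lower genes that hold the core alone, 30 and 38 bases before the start. Not all strongly lower genes hold a motif: the windows of Lyz2, Ms4a6b, Ms4a6c, Fcer1g and Mpeg1 hold neither. Capitals mark the core.
C1qb, chr4:136886151-136886450, minus strand: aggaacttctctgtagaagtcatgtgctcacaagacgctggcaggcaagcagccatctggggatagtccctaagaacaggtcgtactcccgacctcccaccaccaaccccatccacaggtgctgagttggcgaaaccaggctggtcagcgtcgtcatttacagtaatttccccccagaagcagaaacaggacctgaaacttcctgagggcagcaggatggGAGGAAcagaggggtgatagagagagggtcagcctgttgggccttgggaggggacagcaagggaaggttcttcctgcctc
Laptm5, chr4:130913066-130913365, plus strand: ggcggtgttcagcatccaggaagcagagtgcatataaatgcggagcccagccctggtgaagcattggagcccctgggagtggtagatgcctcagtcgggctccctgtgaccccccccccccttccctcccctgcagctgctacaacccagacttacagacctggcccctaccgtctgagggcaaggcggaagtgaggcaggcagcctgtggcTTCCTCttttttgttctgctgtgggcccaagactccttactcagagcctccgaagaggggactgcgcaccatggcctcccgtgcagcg

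Folr2 and Csf1 are shown because the expression of one was not called different and that of the other differed little. One of the 2 Folr2 windows holds a composite (capitals), and the Csf1 window holds neither motif. Folr2 did not pass the test, but its values were the same on most arrays, and whether its probe set detects the gene was not tested.
Folr2, chr7:101857141-101857440, minus strand: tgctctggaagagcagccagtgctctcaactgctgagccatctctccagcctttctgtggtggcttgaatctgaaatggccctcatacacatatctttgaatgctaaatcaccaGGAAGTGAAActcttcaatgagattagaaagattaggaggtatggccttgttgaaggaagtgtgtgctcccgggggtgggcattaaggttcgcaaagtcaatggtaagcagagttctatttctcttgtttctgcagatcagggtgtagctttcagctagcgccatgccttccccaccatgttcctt
Csf1, chr3:107760420-107760719, minus strand: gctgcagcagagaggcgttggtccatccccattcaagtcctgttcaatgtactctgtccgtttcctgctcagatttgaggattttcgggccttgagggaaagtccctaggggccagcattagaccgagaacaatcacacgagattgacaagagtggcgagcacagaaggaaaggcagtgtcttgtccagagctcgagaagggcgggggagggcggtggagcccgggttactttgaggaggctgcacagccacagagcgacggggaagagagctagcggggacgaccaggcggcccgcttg

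Of the 40 genes, 37 were lower in YFP-positive cells and 0 were higher at a limma adjusted p under 0.05, while 9.11% of all genes tested were lower and 8.39% higher. The 40 genes were chosen with earlier results of these data known, so the contrast with all genes describes them and is no independent test. The values are log2 expression levels as the authors deposited them, and a log2 fold change is the YFP-positive mean minus the YFP-negative mean. The median log2 fold change of the 40 genes was -2.84, against 0.01 over all genes tested. Against a 1.5-fold difference, limma's treat test still called 30 of the 40 lower, and 2.8% of all genes. At least 4-fold lower levels were found for 26 of the 40 (1.37% of all genes), at least 8-fold lower levels for 19 (0.441% of all genes) and at least 16-fold lower levels for 6 of them (0.0702% of all genes). The 4 YFP-positive arrays lay entirely below the 3 YFP-negative arrays for 38 of the 40 genes, as for 13.5% of all genes. Lyve1, Folr2 and Il34 did not pass. Without YFP-positive arrays 3 and 4, a choice made after seeing the data, 34 of the 40 were lower. In such bulk RNA fewer macrophages and less RNA per macrophage cannot be told apart. There were no detection calls in the table, so dim genes may sit at background, which would make their fold changes too small.

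**Figure D1:**
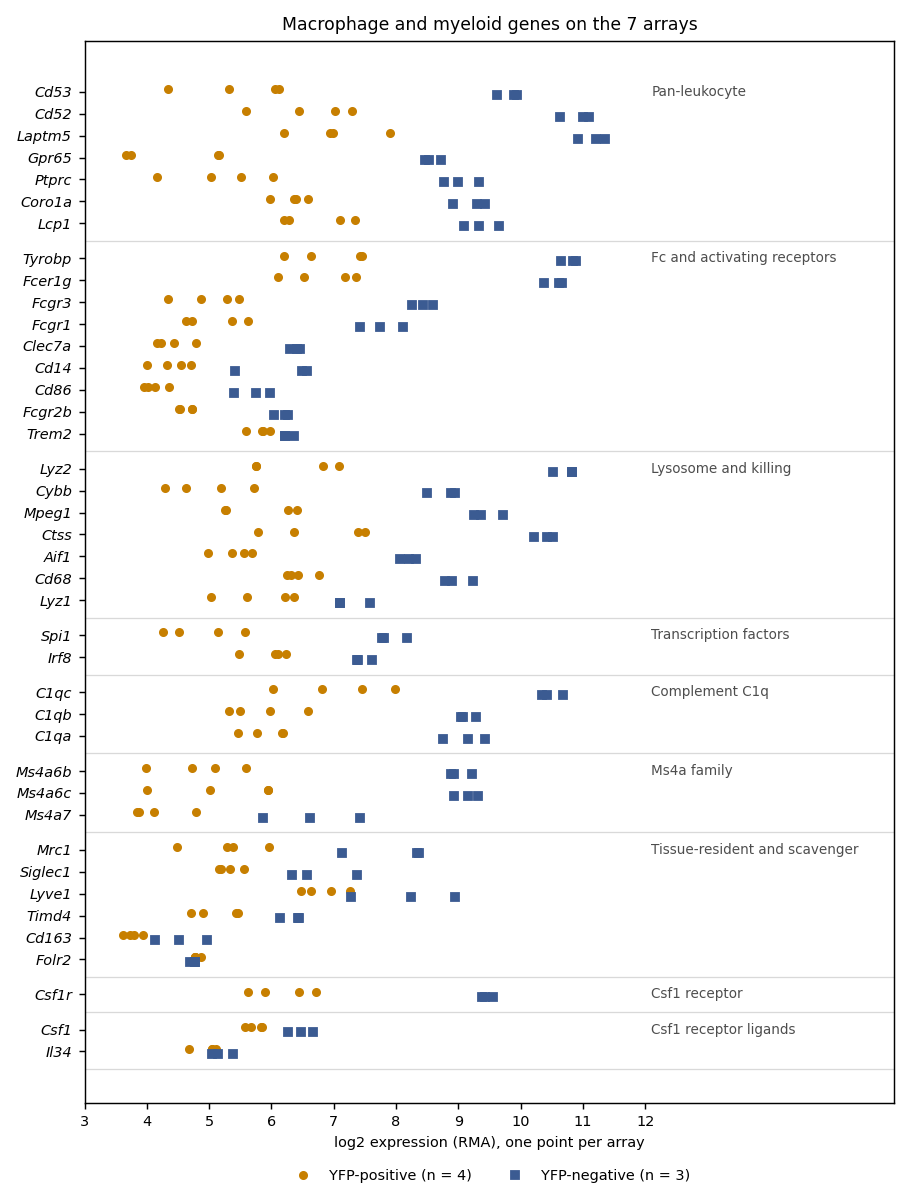
Log2 expression of each of the 40 genes on the 4 YFP-positive arrays (circles) and the 3 YFP-negative arrays (squares), grouped by role, 1 point per array. Circles lie left of every square in 38 of the 40 rows, and the groups overlap for Folr2 and Il34.

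Markers of each side were checked against the sort labels. All 9 measured neuron markers and all 5 measured glia markers were higher in YFP-positive cells, with mean neuron marker levels of 8.96 to 9.52 on the YFP-positive arrays, against 5.21 to 5.60 on the YFP-negative arrays. Epithelial markers, 9 in number, did not separate the groups: 0 were lower and 0 higher, with mean levels of 8.08 to 9.29 on the YFP-positive arrays, against 8.74 to 8.84 on the YFP-negative arrays. Array medians over all genes ran from 5.87 to 5.92.

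Genes shared by nearly all white blood cells had the largest differences among the role groups, with a median log2 fold change of -4.14 and 7 of 7 lower. Ptprc, which encodes the leukocyte phosphatase CD45, had log2 levels of 4.16, 5.03, 5.51 and 6.03 on the YFP-positive arrays, against 8.77, 8.99 and 9.33 on the YFP-negative arrays. The highest YFP-positive array was thus well under the lowest YFP-negative one, a 14.4-fold difference of means (log2 fold change -3.85 ± 0.42 SE with a limma adjusted p of 0.000974). Cd53, a tetraspanin of leukocytes, had levels of 4.34, 5.31, 6.12 and 6.06 on the YFP-positive arrays, against 9.62, 9.94 and 9.90 on the YFP-negative arrays (log2 fold change -4.36 ± 0.42 SE with a limma adjusted p of 0.000619). Its YFP-positive values spread over a wider range than its YFP-negative ones. Cd52, a small surface glycoprotein of leukocytes, was 20.1-fold lower (limma adjusted p = 0.000460). The lysosomal membrane protein gene Laptm5 was 17.8-fold lower (limma adjusted p = 0.000394). Gpr65, an acid-sensing receptor of immune cells, had levels of 3.75, 3.67, 5.14 and 5.16 on the YFP-positive arrays, against 8.46, 8.72 and 8.53 on the YFP-negative arrays. The 4 YFP-positive values of Gpr65 fell into a lower and a higher pair, both far below the other group (log2 fold change -4.14 ± 0.42 SE with a limma adjusted p of 0.000775). The actin regulators of leukocytes Coro1a (-2.88 ± 0.18) and Lcp1 (-2.63 ± 0.32) changed least in this group, and Lcp1, which encodes L-plastin, is also made by some epithelial cells.

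These 7 genes are not particular to macrophages, and markers of other blood cells were lower as well. Of 9 neutrophil markers 4 were lower, of 7 mast cell markers 6, and of 8 lymphoid markers 6, with 0 higher in any of the lists. Mast cell markers averaged 4.06 to 4.25 on the YFP-positive arrays, against 6.25 to 6.95 on the YFP-negative arrays. Lymphoid markers averaged 4.37 to 4.57 on the YFP-positive arrays, against 5.83 to 6.63 on the YFP-negative arrays. Their part in the pan-leukocyte differences was not tested.

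Csf1r, the receptor that macrophages need to survive, was lower in YFP-positive cells. It had log2 levels of 5.63, 5.89, 6.72 and 6.45 on the YFP-positive arrays, against 9.39, 9.55 and 9.42 on the YFP-negative arrays. The groups did not overlap, and the means differed 9.73-fold (log2 fold change -3.28 ± 0.26 SE with a limma adjusted p of 0.000243).

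The ligands of this receptor had smaller fold changes. Csf1 had levels of 5.83, 5.58, 5.84 and 5.67 on the YFP-positive arrays, against 6.48, 6.67 and 6.27 on the YFP-negative arrays. The groups did not overlap, but the difference was 1.67-fold (log2 fold change -0.74 ± 0.11 SE with a limma adjusted p of 0.00475). Il34 had levels of 4.68, 5.05, 5.05 and 5.10 on the YFP-positive arrays, against 5.38, 5.14 and 5.05 on the YFP-negative arrays. The ranges overlapped, and the call was not made (log2 fold change -0.22 ± 0.13 SE with a limma adjusted p of 0.315, 95% interval -0.52 to 0.08). Taken as it stands, this interval holds at most a slightly higher level in YFP-positive cells. However, Il34 had the very same value, 5.04528, on YFP-positive arrays 2 and 3 and on YFP-negative array 3. Whether its probe set sits at background was not tested, so the interval may not bound the level of Il34.

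Transcription factors of the lineage were lower. Spi1, the gene of PU.1, had levels of 4.26, 4.52, 5.58 and 5.14 on the YFP-positive arrays, against 7.78, 8.17 and 7.81 on the YFP-negative arrays. The groups did not overlap, and the YFP-positive mean was 8.26-fold lower (log2 fold change -3.05 ± 0.32 SE with a limma adjusted p of 0.000812). Irf8, whose product partners PU.1 and directs monocytes and dendritic cells, differed less, at 2.82-fold lower (log2 fold change -1.50 ± 0.18 SE with a limma adjusted p of 0.00170). Of 8 other measured transcription factors of myeloid cells 5 were lower and 0 higher, led by Ikzf1 (-2.81 ± 0.27), Runx1 (-2.44 ± 0.17), Maf (-1.51 ± 0.30) and Cebpb (-1.50 ± 0.10). Runx1 is a founder factor of blood development, and Maf a factor of differentiated macrophages.

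Receptors for antibody and other ligands, with their adaptors, were lower in 9 of 9 cases, but the size differed widely between members, from -3.87 ± 0.32 for Tyrobp to -0.44 ± 0.10 for Trem2 (log2 fold change ± SE). Tyrobp, which encodes the adaptor DAP12, had levels of 6.19, 6.63, 7.46 and 7.41 on the YFP-positive arrays, against 10.65, 10.84 and 10.88 on the YFP-negative arrays (log2 fold change -3.87 ± 0.32 SE with a limma adjusted p of 0.000287). Fcer1g, the common signalling chain of Fc receptors, had levels of 6.10, 6.51, 7.18 and 7.35 on the YFP-positive arrays, against 10.38, 10.67 and 10.61 on the YFP-negative arrays (log2 fold change -3.77 ± 0.30 SE with a limma adjusted p of 0.000260). Both adaptors were thus more than 10-fold lower. Among the Fc receptors themselves, Fcgr3 (10.8-fold) and the high-affinity receptor Fcgr1 (6.39-fold) were lower by more than the inhibitory receptor Fcgr2b (2.93-fold). Fcgr2b had levels of 4.53, 4.72, 4.73 and 4.51 on the YFP-positive arrays, against 6.27, 6.05 and 6.21 on the YFP-negative arrays. Its values within each group spread little (limma adjusted p = 7.52e-05).

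Trem2, a lipid receptor that signals through Tyrobp, had the smallest difference that passed in this group. It had levels of 5.84, 5.60, 5.98 and 5.87 on the YFP-positive arrays, against 6.22, 6.35 and 6.21 on the YFP-negative arrays. The groups did not overlap, but the call was lost in 3 of the 7 fits that left out 1 array, namely those lacking YFP-positive array 1, YFP-negative array 1 or YFP-negative array 2 (limma adjusted p of up to 0.0865). Clec7a, the receptor for fungal beta-glucan, was 3.97-fold lower (limma adjusted p = 0.000208), and Cd86, a costimulatory ligand for T cells, 3.01-fold lower (limma adjusted p = 0.000668). Cd14, the co-receptor for bacterial lipopolysaccharide, had levels of 4.0, 4.71, 4.54 and 4.32 on the YFP-positive arrays, against 6.48, 6.56 and 5.42 on the YFP-negative arrays. YFP-negative array 3 stood more than 1 log2 unit below the other arrays of its group, and the difference was -1.76 ± 0.31 (limma adjusted p = 0.00786). Without YFP-positive arrays 3 and 4 the call was lost (limma adjusted p = 0.0750).

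Genes of the lysosome and of killing were lower in 7 of 7 cases, with a median log2 fold change of -3.63. Lyz2, the lysozyme of macrophages and neutrophils, led with levels of 5.75, 5.75, 7.09 and 6.83 on the YFP-positive arrays, against 10.53, 10.82 and 10.82 on the YFP-negative arrays. The groups stood far apart, with means that differed 20.6-fold (log2 fold change -4.37 ± 0.36 SE with a limma adjusted p of 0.000316). Lyz1, the neighbouring gene, which Paneth cells of the crypt use, had levels of 5.02, 5.60, 6.36 and 6.22 on the YFP-positive arrays, against 7.58, 7.10 and 7.10 on the YFP-negative arrays. The groups did not overlap, but the difference was 2.75-fold (log2 fold change -1.46 ± 0.33 SE with a limma adjusted p of 0.0235). The call was lost in 4 of the 7 fits that left out 1 array, namely those lacking YFP-positive array 2 or any of the YFP-negative arrays (limma adjusted p of up to 0.0905). Lyz1 and Lyz2 are close copies, and whether their probe sets separate them was not tested. A mixed list of markers of Paneth and other secretory epithelial cells had 0 of 5 genes called, with mean levels of 7.70 to 9.16 on the YFP-positive arrays, against 8.88 to 9.73 on the YFP-negative arrays. Whether Paneth cells were present at embryonic day 17.5 was not tested, so this list does not measure them.

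Ctss, a lysosomal protease that cuts antigen, was 12.4-fold lower (log2 fold change -3.63 ± 0.42 SE with a limma adjusted p of 0.00132). Mpeg1, a pore-forming protein of macrophages, was 12.5-fold lower (log2 fold change -3.64 ± 0.33 SE with a limma adjusted p of 0.000466). Cybb, the catalytic subunit of the phagocyte NADPH oxidase whose promoter is shown above, had levels of 4.29, 4.62, 5.19 and 5.72 on the YFP-positive arrays, against 8.50, 8.88 and 8.95 on the YFP-negative arrays. The lowest YFP-negative value was far above the highest YFP-positive one (log2 fold change -3.82 ± 0.34 SE with a limma adjusted p of 0.000397). All 4 measured partners of the oxidase were lower too, led by Rac2 (-3.42 ± 0.29) and the other membrane subunit Cyba (-2.43 ± 0.28), then Ncf4 (-2.20 ± 0.19) and Ncf1 (-2.09 ± 0.16). Aif1, the actin-binding marker IBA1, was 6.92-fold lower (limma adjusted p = 9.18e-05). Cd68, a lysosomal glycoprotein, had levels of 6.42, 6.32, 6.25 and 6.76 on the YFP-positive arrays, against 8.78, 9.23 and 8.90 on the YFP-negative arrays. Its values on the 4 YFP-positive arrays lay close together (log2 fold change -2.54 ± 0.15 SE with a limma adjusted p of 9.8e-05).

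The 3 genes of C1q, the protein that starts the classical complement pathway and that tissue macrophages make, are neighbours on chromosome 4 and were lower to a like degree. C1qa had levels of 5.46, 5.76, 6.17 and 6.19 on the YFP-positive arrays, against 9.15, 9.42 and 8.75 on the YFP-negative arrays (log2 fold change -3.21 ± 0.23 SE with a limma adjusted p of 0.000168). C1qb had levels of 5.32, 5.49, 5.98 and 6.58 on the YFP-positive arrays, against 9.05, 9.29 and 9.07 on the YFP-negative arrays (log2 fold change -3.29 ± 0.29 SE with a limma adjusted p of 0.000416). C1qc had levels of 6.03, 6.80, 7.46 and 7.99 on the YFP-positive arrays, against 10.42, 10.68 and 10.34 on the YFP-negative arrays (log2 fold change -3.41 ± 0.43 SE with a limma adjusted p of 0.00195). The 3 fold changes differed by less than their standard errors, and no group overlapped. C1qc varied most among the YFP-positive arrays. Of 7 other complement genes, 2 were lower, the C1 inhibitor gene Serping1 (-1.87 ± 0.29) and the properdin gene Cfp (-1.19 ± 0.08), and 0 were higher.

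Members of the Ms4a family, membrane proteins with a cluster on chromosome 19, were lower in 3 of 3 cases. Ms4a6b had levels of 3.98, 4.72, 5.09 and 5.60 on the YFP-positive arrays, against 8.94, 9.22 and 8.87 on the YFP-negative arrays (log2 fold change -4.16 ± 0.35 SE with a limma adjusted p of 0.000336). Ms4a6c was 15.0-fold lower (log2 fold change -3.91 ± 0.47 SE with a limma adjusted p of 0.00160). Ms4a7, a marker of mature tissue macrophages, had levels of 3.85, 3.87, 4.11 and 4.78 on the YFP-positive arrays, against 6.62, 7.43 and 5.86 on the YFP-negative arrays. The YFP-negative values of Ms4a7 spread over more than 1 log2 unit, with array 3 the lowest, and the groups did not overlap (log2 fold change -2.48 ± 0.39 SE with a limma adjusted p of 0.00512).

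Genes of tissue-resident and scavenging macrophages had the smallest median difference of the role groups apart from the ligands, with 4 of 6 lower and a median log2 fold change of -1.26. Their mean level on the YFP-negative arrays, 6.41, was also the lowest of the role groups apart from the ligands (5.83). Whether low levels limited these differences was not tested. Mrc1, the mannose receptor CD206, had levels of 4.48, 5.28, 5.38 and 5.96 on the YFP-positive arrays, against 8.33, 8.37 and 7.13 on the YFP-negative arrays. Of the 6 genes it differed most, at 6.37-fold lower (log2 fold change -2.67 ± 0.42 SE with a limma adjusted p of 0.00515). Siglec1, a sialic acid receptor of resident macrophages, had levels of 5.16, 5.18, 5.55 and 5.34 on the YFP-positive arrays, against 6.58, 7.37 and 6.33 on the YFP-negative arrays (log2 fold change -1.45 ± 0.24 SE with a limma adjusted p of 0.00689). Its groups did not overlap, and without YFP-positive arrays 3 and 4 its adjusted p was 0.0501. Timd4, a receptor for phosphatidylserine on dying cells that marks long-lived resident macrophages, was 2.30-fold lower (log2 fold change -1.20 ± 0.21 SE with a limma adjusted p of 0.00744).

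Cd163, the haemoglobin scavenger receptor, had levels of 3.94, 3.61, 3.73 and 3.79 on the YFP-positive arrays, against 4.52, 4.97 and 4.14 on the YFP-negative arrays (log2 fold change -0.78 ± 0.19 SE with a limma adjusted p of 0.0314). The groups did not overlap, but the call was lost in 6 of the 7 fits that left out 1 array, all but the one without YFP-negative array 3 (limma adjusted p of up to 0.0918), and without YFP-positive arrays 3 and 4 (limma adjusted p = 0.169). Lyve1, a hyaluronan receptor of a subset of macrophages and of lymphatic vessels, had levels of 6.47, 6.64, 7.26 and 6.96 on the YFP-positive arrays, against 8.24, 8.94 and 7.27 on the YFP-negative arrays. The lowest YFP-negative value only just exceeded the highest YFP-positive one, and the difference did not pass (log2 fold change -1.32 ± 0.39 SE with a limma adjusted p of 0.0601, 95% interval -2.23 to -0.40). Without YFP-negative array 3 it passed, at -1.76 ± 0.29 (limma adjusted p = 0.0116). Of 3 measured lymphatic endothelium markers, 0 were lower, and 1, Pdpn, was higher (1.26 ± 0.19). Folr2, a folate receptor of resident macrophages, had levels of 4.77, 4.77, 4.77 and 4.86 on the YFP-positive arrays, against 4.77, 4.77 and 4.70 on the YFP-negative arrays. These values barely varied, and the log2 fold change was 0.05 ± 0.05 (limma adjusted p = 0.625, 95% interval -0.08 to 0.18). The value was exactly 4.76863 on YFP-positive arrays 1 to 3 and on YFP-negative arrays 1 and 2. Whether this probe set detects Folr2 was not tested, so the interval may not bound its level.

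The YFP-positive arrays did not carry equal levels of these genes. For 29 of the 40 genes both YFP-positive arrays 1 and 2 lay below both arrays 3 and 4, as for 17.0% of all genes tested. Array 1 was the lowest of the 4, or tied for lowest as with Folr2, for 31 of the 40, as for 29.7% of all genes. The median difference of the 7 pan-leukocyte genes from their YFP-negative means was -4.87, -4.17, -3.52 and -3.26 on YFP-positive arrays 1 to 4. For the 3 C1q genes it was -3.81, -3.65, -3.02 and -2.55, and for the 2 ligand genes -0.58, -0.52, -0.38 and -0.44. By these medians the leukocyte and C1q genes were closest to the YFP-negative level on array 4. By their medians, other roles ordered the arrays differently. The 9 Fc and activating receptors stood at -2.16, -1.96, -1.75 and -2.23, so that by the median array 4 was the furthest away. Their mean levels were 4.91, 5.13, 5.52 and 5.38, lowest on array 1. The 7 lysosomal genes stood at -4.18, -4.02, -2.88 and -3.0 and Csf1r at -3.83, -3.56, -2.73 and -3.01, both closest on array 3. Mean levels of the lysosomal genes were 5.36, 5.61, 6.33 and 6.41, highest on array 4.

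Marker genes of some other non-neural cells moved alongside. The median difference from the YFP-negative means was -0.80, -0.48, 0.30 and 0.61 for 9 epithelial markers on YFP-positive arrays 1 to 4, -2.34, -1.69, -1.05 and -0.61 for 6 smooth muscle markers and -2.68, -2.03, -1.52 and -1.31 for 7 fibroblast markers. By the median the epithelial markers thus passed the YFP-negative level on arrays 3 and 4, where the median of the pan-leukocyte genes remained more than 3 log2 units below it. The 6 endothelium markers stood at -0.59, -0.83, -0.35 and -0.29, lowest on array 2. The 3 lymphatic endothelium markers showed no such rise, at 0.49, 0.30, 0.41 and 0.37. Neuron markers went the other way, at 4.33, 4.28, 3.87 and 3.54. Among markers of other blood cells the medians were -1.34, -2.02, -1.62 and -1.30 for neutrophil, -1.21, -1.68, -1.42 and -1.33 for lymphoid and -2.27, -2.56, -2.66 and -2.65 for mast cell markers. The mean levels were 4.96, 4.81, 5.24 and 5.74 for neutrophil, 4.46, 4.37, 4.57 and 4.47 for lymphoid and 4.06, 4.07, 4.12 and 4.25 for mast cell markers. By the means arrays 3 and 4 lay above both arrays 1 and 2 in all 3 lists, by the least in the lymphoid list, while no list did so by the medians. The neutrophil gene S100a8, a calcium-binding protein, had levels of 5.30, 4.42, 6.87 and 7.89 on the YFP-positive arrays, against 10.51, 11.63 and 12.14 on the YFP-negative arrays. It rose most of the 9 neutrophil markers from YFP-positive arrays 1 and 2 to arrays 3 and 4. Only 4 of the 9 had both arrays 1 and 2 below both arrays 3 and 4, and the median rise was 0.22. The part of these other cells in the myeloid values was not tested.

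**Figure D2:**
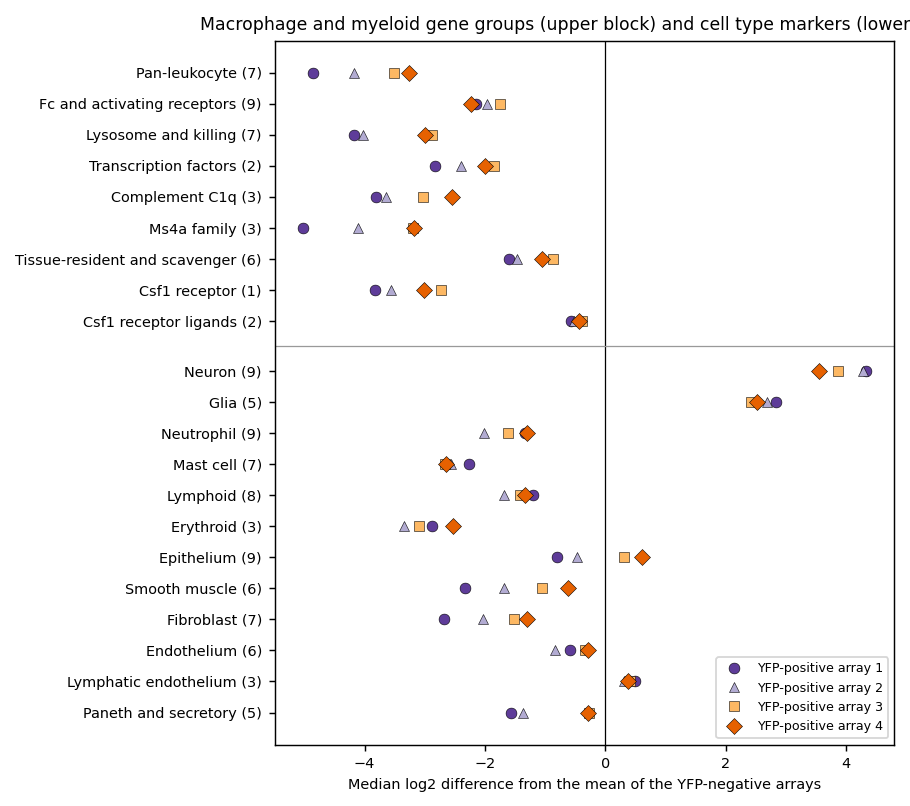
Median log2 difference of each gene group from its mean on the YFP-negative arrays, for each of the 4 YFP-positive arrays (symbols), with the groups of macrophage and myeloid genes above and cell type markers below, and the number of genes in brackets. Pan-leukocyte, Ms4a and lysosomal genes reach furthest left, epithelial markers lie between -0.80 and 0.61, and neuron and glia markers lie right of 0.

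The YFP-negative arrays also differed among themselves, and not in the same way for every role. YFP-negative array 3 was the lowest of the 3 for 5 of the 6 tissue-resident genes, with a median of -0.63 relative to the mean of arrays 1 and 2, and was the highest for 0 of them. Mrc1, Lyve1 and Ms4a7 were each more than 1 log2 unit lower there. For the pan-leukocyte genes array 3 was the highest of the 3 in 5 of 7 cases and the lowest in 0, with a median of 0.29. Over all genes tested, array 3 was the lowest for 34.1% and the highest for 32.2%, and the middle 90% of genes lay between -0.48 and 0.45. Csf1r hardly differed between these arrays.

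Other blood and stromal markers moved on that array as well. Array 3 was the highest of the YFP-negative arrays for 8 of 9 neutrophil markers (median difference 1.08) and for 8 of 8 lymphoid markers (0.78), and for 2 of 3 erythroid markers. It was the lowest for 7 of 7 fibroblast markers (-0.69) and 5 of 6 smooth muscle markers (-0.58). The part of these shifts in the tissue-resident values was not tested.

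**Figure D3:**
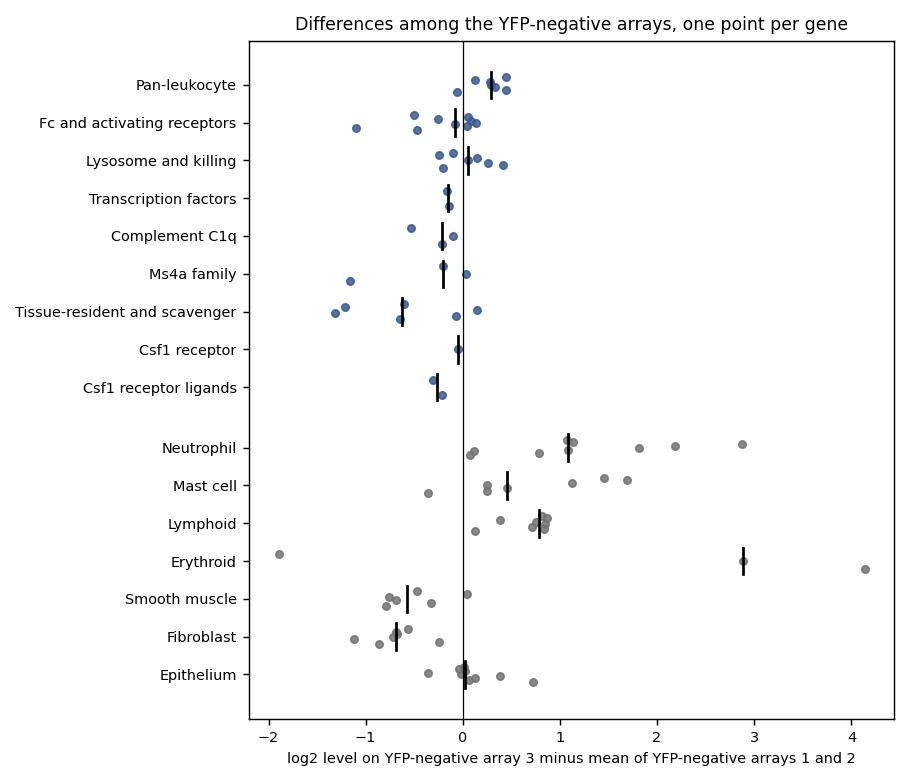
Log2 level on YFP-negative array 3 minus the mean of YFP-negative arrays 1 and 2, 1 point per gene with the median of each group as a bar, for the macrophage and myeloid groups (upper block) and marker lists of other cells (lower block). Tissue-resident genes have a median of -0.63 and pan-leukocyte genes of 0.29, while neutrophil markers have a median of 1.08.

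Genes that act in the same pathways but lie outside the 40 were read from 8 lists. Of 81 measured, 63 were lower in YFP-positive cells and 2 higher, beside 9.11% and 8.39% of all genes. These lists, too, were chosen with earlier results of these data known. The 10 measured genes of signalling by immune receptors, which include kinases, phosphatases, adaptors, a phospholipase and the exchange factor Vav1, were all lower, led by Fyb (-3.83 ± 0.25), Lcp2 (-3.28 ± 0.17), the lipid phosphatase gene Inpp5d (-2.93 ± 0.22) and Vav1 (-2.28 ± 0.30). Of 13 toll-like receptors and their partners 12 were lower, led by Ly86 (-3.77 ± 0.27), the receptor for bacterial ribosomal RNA Tlr13 (-3.12 ± 0.34), Cd180 (-2.37 ± 0.22) and Tlr1 (-2.36 ± 0.28). The double-stranded RNA receptor Tlr3, the exception, stood at 0.41 ± 0.21 (limma adjusted p = 0.248).

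Of 20 further surface receptors and secreted products of monocytes and macrophages 19 were lower. The monocyte chemokine receptor Ccr2 (-3.58 ± 0.23), the complement receptor C3ar1 (-3.56 ± 0.38), Pld4 (-3.48 ± 0.24) and Adgre1, the F4/80 antigen (-3.22 ± 0.31), led. Vsig4 was the exception at -0.05 ± 0.10 (limma adjusted p = 0.777). Of 9 genes of related growth factor pathways 5 were lower and 0 higher, among them Csf2rb, the shared receptor chain for GM-CSF and interleukin 3 (-2.39 ± 0.18), the granulocyte receptor Csf3r (-1.54 ± 0.17), Flt3 (-1.47 ± 0.15) and its ligand Flt3l (-0.77 ± 0.15).

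A list of ligands of macrophage receptors, which also holds Bmp2, a signal from macrophages, went both ways, with 6 of 10 lower and 2 higher in ENCDC. Tgfb2, a TGF-beta ligand, had log2 levels of 9.66, 9.11, 9.11 and 9.23 on the YFP-positive arrays, against 6.51, 6.01 and 6.18 on the YFP-negative arrays. It was higher on every YFP-positive array (log2 fold change 3.04 ± 0.17 SE with a limma adjusted p of 7.74e-05). Cd200, a surface protein that restrains myeloid cells through the receptor CD200R, had levels of 8.74, 8.66, 8.24 and 8.04 on the YFP-positive arrays, against 6.49, 6.50 and 5.99 on the YFP-negative arrays (log2 fold change 2.10 ± 0.21 SE with a limma adjusted p of 0.000721). Cd200, too, was above every YFP-negative value on each YFP-positive array. The lower ligands included the monocyte chemokine gene Ccl2 (-1.97 ± 0.35), Tgfb1 (-1.79 ± 0.15), Apoe (-1.33 ± 0.17) and Bmp2, which muscle-layer macrophages supply to enteric neurons in adult mice (-1.16 ± 0.19). Cx3cl1, the ligand of the macrophage receptor Cx3cr1, stood at -0.29 ± 0.13 (limma adjusted p = 0.194), while Cx3cr1 itself was lower by 2.75 ± 0.13 (limma adjusted p = 4.25e-05).

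**Figure D4:**
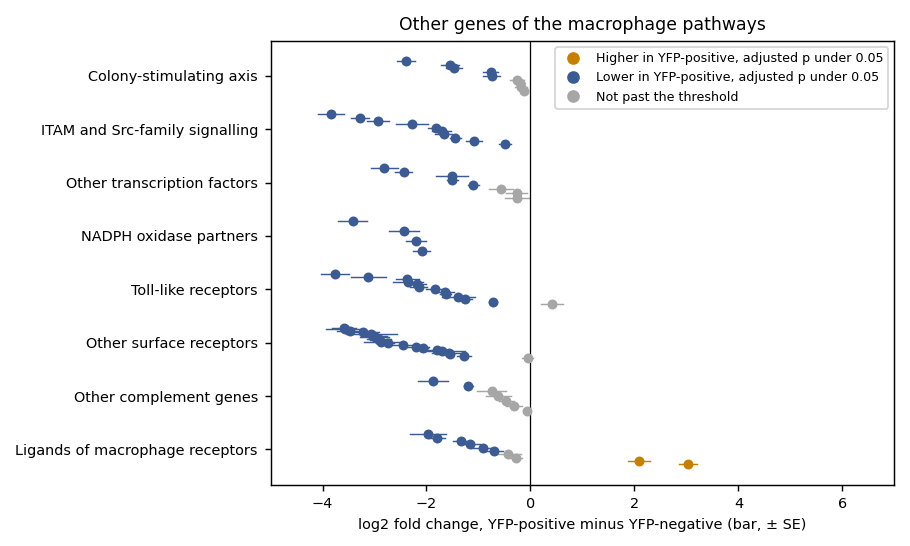
Log2 fold change, YFP-positive minus YFP-negative, of 81 genes of 8 pathway lists (points, bars ± SE), coloured by call at a limma adjusted p under 0.05. Of the 81 genes 63 lie left of 0 and passed, and Tgfb2 and Cd200 lie right of 0 and passed.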

How the data were processed

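RNA of 7 sorted samples was read on microarrays. Per the labels' protocols, cells were isolated by FACS, total RNA was extracted with Trizol, and biotinylated cDNA was made with a NuGen Ovation Pico WTA kit, which amplifies small amounts of RNA. The authors deposited log2 levels, 1 value per probe set and array. Per the submitters' processing notes these came from Expression Console with the RMA method, and the sources used here give no version. Quantile scaling within RMA and amplification can compress differences. Every sample column was matched by name, and 0 were left unmatched.

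The platform annotation paired 21789 of 35556 probe sets with 1 gene symbol. Those with several symbols (1621) or no name (12146) were left out, and each gene was read from its brightest probe set over the 7 arrays, which gave 19938 genes. No gene of the 40 had a second probe set.

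Groups were compared in R 4.3.3 with lmFit and eBayes of limma 3.58.1, with the group as the only term and Benjamini-Hochberg adjustment over all genes. The fit was tested on simulated data. Tables and figures were made with Python 3.11.15, pandas 2.3.3 and matplotlib 3.10.9. The 40 genes and all lists were chosen with earlier results of these data known. Every gene of the 40 is named. From each pathway list up to 4 called genes with the largest change are named, up to 2 that passed against their list, and others after their values were seen (Tlr3, Vsig4, Cx3cl1, Cx3cr1, Pdpn, S100a8). Listed genes without a probe set of 1 symbol are not analysed here. RefSeq protein sequences were not used here. Promoter windows came from the RefSeq table of GRCm38.p6, and the letters were searched on both strands.

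The alternatives were trend and robust options, median centring, renewed quantile normalization, a filter that dropped the dimmest genes, the mean of a gene's probe sets, a fit over every probe set, array weights, treat against 1.5-fold, the replicate number as a block, and leaving out each array. Leaving out YFP-positive arrays 3 and 4 was added after the data were seen. The samples were not treated as paired. With 4 and 3 arrays the precision of each value is limited by their number.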

Additional observations from a re-analysis of the deposited data

Results flagged for a closer look

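Single arrays that stood apart were looked for in the group of 4 YFP-positive arrays, for each of the 40 genes and for their mean, 41 comparisons in all. Chance gives about 1 in 20 of them. Il34 stood at 4.68 on YFP-positive array 1, against 5.05 to 5.10 on the other arrays of the group. Folr2 stood at 4.86 on YFP-positive array 4, while the other arrays of the group all had 4.77. With the others equal, any different value on array 4 would have been flagged, however small the gap.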

How the results depend on the processing

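Over 17 alternatives the number of the 40 genes that were lower in YFP-positive cells ranged from 30, in the test against 1.5-fold, to 38, with renewed quantile normalization or array weights, and 0 were higher in each. Leaving out 1 array gave 34 to 37 lower and 0 higher genes, with a median log2 fold change of -2.97 to -2.71. Over all genes the same fits gave 1166 to 1890 lower and 1202 to 1452 higher genes, beside 1817 and 1672 with every array, and the 1166 came without YFP-negative array 2, for which the cause was not tested. The test against 1.5-fold called 558 lower and 469 higher genes of all genes, which is fewer by its construction. It left Trem2, Cd14, Lyz1, Cd163, Timd4, Siglec1 and Csf1 without a call. The replicate block gave 31 lower genes of the 40, and 1264 lower and 1245 higher genes over all, and did not call Trem2, Cd14, Lyz1, Cd163, Siglec1 and Csf1. The labels link the arrays only by a number and do not say whether same-numbered samples were paired. Correlations of the deviations from the group means ran from -0.086 to 0.038 over 3 pairs of same-numbered arrays. Of the 3 YFP-negative arrays, 0 correlated best with the YFP-positive array of their own number. So few arrays cannot decide whether samples were paired. Lyve1 passed with renewed quantile normalization (adjusted p = 0.0449), without the dimmest genes (0.0388) and with array weights (0.0186), all from limma. That filter removed 3 of the 40 genes. The log2 fold change was negative in every alternative for 39 of the 40, all but Folr2, and 30 of the 40 were called in each alternative that kept them.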
